A study of Mus musculus with 6 samples.

Results

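The comparison described here set the Achilles tendon RNA-seq library of Dicer cKO against that of Control, across every gene of the count table that had enough reads. Control carried floxed alleles of the miRNA-processing gene Dicer1 and no Cre (Dicer f/f). Dicer cKO carried the same floxed alleles together with a Cre knock-in at the Scx locus (ScxCre/+ Knock In:Dicer f/f). A further library, ScxHt, had the knock-in and intact Dicer (ScxCre/+ Knock In:Dicer +/+), and its values are given beside the others as a library with Cre and with Dicer. The mice were 4 weeks old. Each of the 3 genotypes was sequenced as 1 library from 1 mouse. Genes were kept if their mean normalized count over the Control and Dicer cKO libraries was above 50, which left 13366 of the 53618 genes in the table. Of these, 11315 had a gene name. The other 2051 were rows named by a genomic clone, a pseudogene, a small RNA or a date that a spreadsheet made of a gene name. A gene could pass the minimum through 1 library alone.

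Dicer cuts hairpin precursors into mature miRNAs, which guide Argonaute proteins to sites in the 3' UTR of messenger RNAs and lower their level or translation. Scx encodes a transcription factor of tendon and ligament cells, so Cre driven from the Scx locus acts mainly in these cells. Cre activity in the other cells of the samples was not measured here. The Cre allele replaces a copy of Scx in ScxHt and Dicer cKO alike. The Achilles tendon consists mostly of fibroblasts in a matrix of type I collagen, with a sheath, a fibrocartilage insertion, vessels, nerve branches and fat around it, and it continues into calf muscle.

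Neither genotype had a replicate, so how much 2 mice of the same genotype differ cannot be read from these data and no test was made. The range in parentheses after a ratio of Dicer cKO to Control is its 95% exact (Clopper-Pearson) interval. It covers counting error alone and treats every read as an independent molecule, which amplified libraries do not guarantee. A gene is called higher in the Dicer cKO library at a ratio above 1.67 and lower at a ratio below 0.60, the limits that the study used. ScxHt ratios were taken against the same Control library, so the ratios of Dicer cKO and ScxHt share that library and are given side by side without a comparison of the 2.

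Reads are given below in the order Control, ScxHt, Dicer cKO. Dicer1, the targeted gene (GRCm38, chromosome 12, minus strand, bases 104687742 to 104751952), gave 1919, 2025 and 1621 reads and a ratio of 0.877 (0.821 to 0.938). The count covers the whole gene, including reads from outside the floxed part and from cells without Cre, so it checks the genotype labels only weakly. All 15 tendon fibroblast markers were measured, and their summed level was 140672, 125577 and 81850 RPM (reads per 1000000 counted reads). The 20 skeletal muscle fibre markers held 65011, 37259 and 113083 RPM, so the tendon samples contained muscle RNA to different extents. The 12 skin markers held at most 30.4 RPM, and Krt5, Lor and Ivl were listed at 0 reads in every library, as were the granulocyte genes S100a9, Mpo and Elane. The libraries matched in sex-linked genes, with 19886, 20294 and 19634 reads of Xist and at most 4 reads of Ddx3y, Uty, Kdm5d and Eif2s3y in any of them. Library totals ran from 14959399 to 16244232 counted reads, of which the 10 most abundant genes took 19.9% to 24.3%.

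Across the table, 517 genes (3.87%) were higher and 560 (4.19%) lower in the Dicer cKO library, and 12289 (91.9%) lay between the limits. Counting error left 2884 genes (21.6%) with an interval wholly above 1 and 3803 (28.5%) with an interval wholly below 1. All counts of list members given below stand beside these shares. The median log2 ratio was -0.03, the middle of the table ran from -0.25 to 0.20 at its quartiles, and 90% of the genes lay between -0.69 and 0.67. A ratio above 2 was found for 214 genes and below 0.5 for 214, and 16 were above 4 and 17 below 0.25. The genes past a limit had fewer reads than the rest, with a median mean count of 109 for the higher and 141 for the lower genes beside 304 for all. The interval itself was past the limit for 164 higher and 182 lower genes. Scaling by total counts instead gave 665 higher and 437 lower genes, so that higher genes made up 60.3% of those past a limit instead of 48.0%. No scaling tried moved the log2 ratios by more than 0.065.

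**Figure D1:**
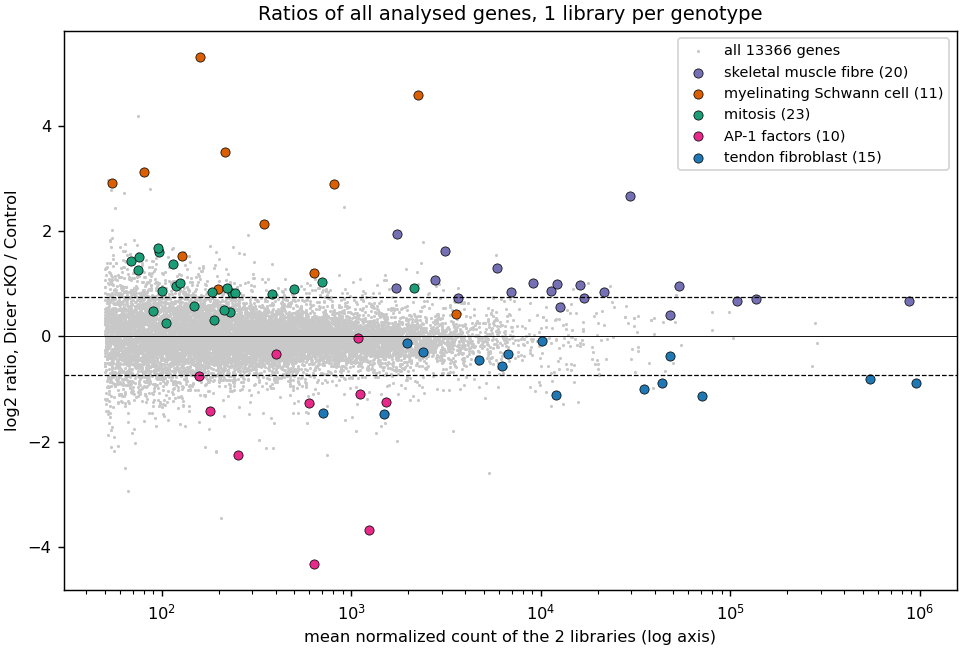
Log2 ratio of Dicer cKO to Control (y axis) against the mean normalized count of the 2 libraries (x axis, log scale) for the 13366 genes analysed, 1 library per genotype; grey points are all genes, coloured points 5 of the lists, and dashed lines the limits of 1.67 and 0.60. Myelinating Schwann cell, muscle and mitosis genes lie above 0, AP-1 and tendon fibroblast genes below it, and ratios spread wider at low counts.

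The highest ratios among named genes belonged to myelin genes of peripheral nerve. Myelinating Schwann cells wrap axons in layers of membrane that holds basic and membrane-spanning proteins, among them Mbp and Pmp22, and the sphingolipid galactosylceramide, which Ugt8a makes. Of the 17 markers of these cells, 11 passed the minimum, and 10 of them were higher in the Dicer cKO library, where 3.87% of all genes were. Because the minimum is a mean of both libraries, some passed it only through the Dicer cKO library, where they were high. Gjc3, for example, had 12.8 normalized reads in Control and 95.8 in Dicer cKO. The count of higher markers is therefore partly fixed by the minimum. The median log2 ratio of the 11 was 2.90, against -0.03 for the table, and -0.13 for ScxHt. In bulk tissue, more cells of a type and more RNA per cell cannot be told apart.

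Ugt8a (chromosome 3, bases 125865271 to 125938619) had 8, 8 and 305 reads, the highest ratio of all named genes at 39.6 (19.8 to 92.5). Scaled by gene length, its level was 0.109, 0.112 and 4.50 RPKM (reads per kilobase and RPM). In all 11 measured genes the Dicer cKO library had the highest RPM of the 3. Mal, a raft protein of myelin, had 36, 19 and 390 reads and a ratio of 11.3 (7.99 to 16.3). Mbp, the basic protein of compact myelin, had 195, 183 and 1403 reads and a ratio of 7.47 (6.43 to 8.72), and its levels per length were 1.43, 1.38 and 11.2 RPKM. The junction genes Cldn19 and Gjc3 were at 8.67 and 7.51, Prx, which links the Schwann cell membrane to the basal lamina, at 4.36, its partner Drp2 at 2.30 and Cnp at 2.88. Pmp22, which fibroblasts express as well, had 3096, 4103 and 4001 reads and the lowest ratio of the list, 1.34 (1.28 to 1.41). The 6 markers under the minimum included Pllp with 4, 6 and 47 reads, Ncmap with 10, 9 and 47, Mag with 2, 1 and 18 and Fa2h with 0, 3 and 36, while Egr2, a regulator of myelination, had 25, 17 and 32 and Gjb1 at most 1. Altogether the 17 markers held 266, 338 and 845 RPM.

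Other markers of Schwann cells and glia that passed the minimum had a lower median than the myelin genes. Of 11 such markers, 5 passed the minimum, with a median log2 ratio of 0.38, and only Cdh19, with 86, 83 and 271 reads and a ratio of 3.27 (2.56 to 4.22), was higher. The neuregulin receptor gene Erbb3 stood at 1.63 (1.27 to 2.11), with 105, 46 and 165 reads, and Scn7a at 1.30. Sox10, the lineage factor of Schwann cells, was under the minimum with 9, 16 and 69 reads. Among 9 markers of the perineurium and endoneurium, the sheaths of nerve bundles, the 7 measured lay on both sides of 1. Sfrp5, a secreted Wnt antagonist, had 12, 9 and 91 reads and a ratio of 7.87 (4.30 to 15.8), and the tight junction gene Cldn1 had 24, 42 and 82 reads and a ratio of 3.55 (2.23 to 5.85). The glucose transporter gene Slc2a1 stood at 0.683, Ntn4 at 0.609 and Sox9, which cartilage also expresses, at 0.256. Genes of axons and their guidance included Kif1a, a motor for synaptic vesicles, at 3.17 and Uchl1 at 1.997, but 6 of the 26 measured members of that list were higher and 4 lower, with a median of -0.28. The neural adhesion gene Tenm2 (18, 36 and 94 reads, ratio 5.42) was among the 20 highest of the named genes, and Ntn1, a guidance ligand, stood at 0.409. Shc4, an adaptor of receptor tyrosine kinases, had 32, 26 and 109 reads and a ratio of 3.54.

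**Figure D2:**
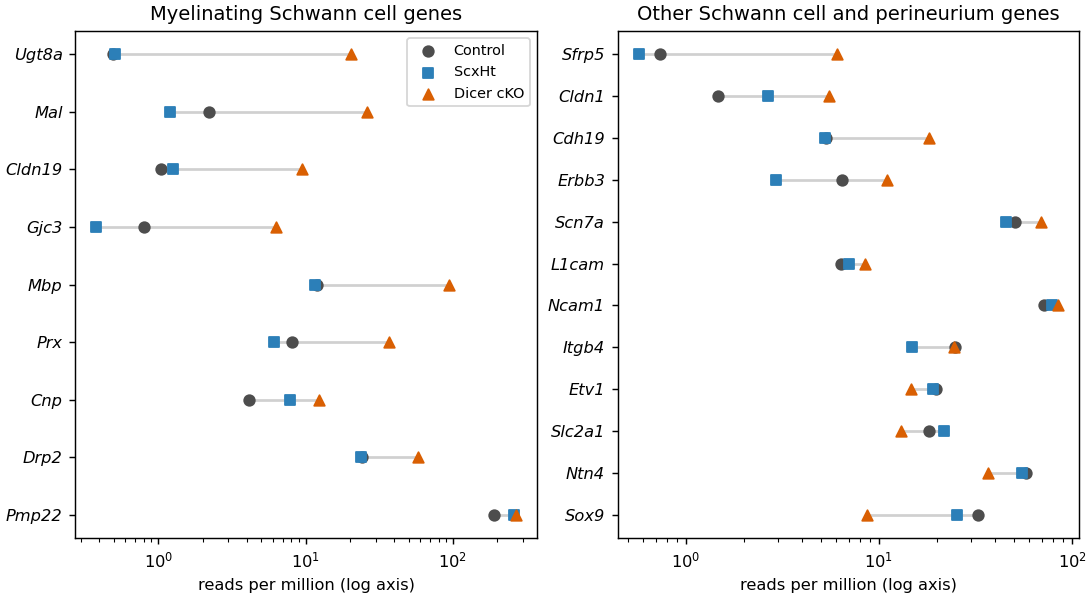
RPM (x axis, log scale) of measured myelinating Schwann cell genes (left) and of other Schwann cell and perineurium genes (right) in the Control, ScxHt and Dicer cKO libraries, 1 point per library and a grey line from lowest to highest. In the left panel the Dicer cKO point lies right of the other 2 in every row, and in the right panel Ntn4 and Sox9 run the other way.

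The lowest ratios among named genes belonged to immediate early genes. These are induced within minutes by growth factors, stretch, stress or handling of a tissue, and encode the AP-1 factors of the Fos and Jun families, the Egr and Nr4a factors, and proteins that switch the same signals off again. Of 12 AP-1 genes, 10 were measured and 8 were lower in the Dicer cKO library, where 4.19% of all genes were, with a median log2 ratio of -1.25. Of 27 other immediate early factors, 23 were measured and 14 were lower (median -0.78), and of 35 feedback regulators, 31 were measured and 14 were lower (median -0.72). None of the members of these 3 lists was called higher. In the ScxHt library, the medians against the same Control were -0.80, -0.57 and -0.65.

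Fosb (chromosome 7, bases 19302696 to 19310051) had 1226, 68 and 59 reads, the lowest ratio of all named genes at 0.0500 (0.0378 to 0.0649). Fos (chromosome 12, bases 85473890 to 85477273) had 2355, 162 and 178 reads and a ratio of 0.0785 (0.0670 to 0.0914). For both genes it was the Control library that stood apart, and the ScxHt ratios were 0.0531 and 0.0659. Nr4a1, an orphan nuclear receptor, had 1251, 308 and 254 reads and a ratio of 0.211 (0.184 to 0.242). Dusp1, a phosphatase that inactivates MAP kinases, had 2832, 720 and 686 reads and a ratio of 0.252 (0.231 to 0.274). Btg2, Errfi1, Apold1, Ddit4 and Csrnp1 had the same form, with ratios of 0.401, 0.321, 0.319, 0.368 and 0.341 in Dicer cKO and of 0.325, 0.377, 0.427, 0.289 and 0.239 in ScxHt.

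Other genes of these lists were lower in the Dicer cKO library than in both others. Junb had 424, 243 and 86 reads and a ratio of 0.211 (0.165 to 0.266). Fosl2 had 1549, 1383 and 700 reads and a ratio of 0.469 (0.429 to 0.513), beside a ScxHt ratio of 0.855. Klf4, a zinc finger factor of fibroblasts and endothelium, had 2323, 1634 and 816 reads and a ratio of 0.365 (0.336 to 0.395). Socs3, Zfp36 and Gem, which damp cytokine signals, destabilise inflammatory messenger RNAs and inhibit calcium channels, had ratios of 0.230, 0.232 and 0.221, and their ScxHt ratios were 0.394, 0.398 and 0.556. Maf, Mafk, Srf, Klf10, Id3, Dusp4, Dusp6, Tnfaip3 and Btg1 lay between the limits. The handling of each tissue and the time to its lysis are not given in the labels, and their part in these differences was not tested.

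Many immediate early genes are induced through the cyclic AMP response element, whose core reads TGACG and whose full palindrome TGACGTCA contains that core. Windows from 250 bases before to 50 bases after each RefSeq start (GRCm38.p6) were searched for both on either strand. Of the 63 measured genes of the 3 lists, 45 had such a window, and 24 of them (53.3%) held the core, beside 36.4% of the 8959 analysed genes with a window and 20.8% of all 32851 promoters. The palindrome was found in 6 of the 45 (13.3%), in 3.63% of the analysed genes and in 1.79% of all promoters. The TATA box TATAAA, searched on the strand of the gene, was found in 11 (24.4%), 5.44% and 8.32%. A match describes letters only, and nothing about binding was measured. Printed here are the 250 bases before the start of Fos (chr12:85473640-85473889, plus strand) and of Nr4a1 (chr15:101266596-101266845, plus strand), a gene with a TATA box and a gene without, both low in ScxHt and Dicer cKO. Capitals mark the core TGACG or its reverse complement CGTCA and, in Fos, the TATA box.
Fos: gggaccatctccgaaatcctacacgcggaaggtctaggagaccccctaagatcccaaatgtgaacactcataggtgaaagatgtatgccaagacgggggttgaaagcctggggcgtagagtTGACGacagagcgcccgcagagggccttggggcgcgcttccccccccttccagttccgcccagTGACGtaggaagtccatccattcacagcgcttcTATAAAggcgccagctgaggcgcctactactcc
Nr4a1: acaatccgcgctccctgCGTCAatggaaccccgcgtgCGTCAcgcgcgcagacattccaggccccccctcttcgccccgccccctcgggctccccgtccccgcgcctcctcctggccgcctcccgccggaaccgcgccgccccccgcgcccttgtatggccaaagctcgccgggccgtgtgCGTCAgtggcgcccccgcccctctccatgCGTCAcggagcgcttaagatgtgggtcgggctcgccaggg
In Fos the cores began 129 and 66 bases and the TATA box 33 bases before the start. Nr4a1 held 4 cores, at 233, 213, 69 and 40 bases before the start.

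Of 30 genes of mitosis, 23 were measured, and 17 of them were higher in the Dicer cKO library (3.87% of all genes) and none was lower. The interval lay above 1 for 22 (21.6% of all genes). The median log2 ratio of the 23 was 0.89 in Dicer cKO and 0.78 in ScxHt. Ube2c, which charges the anaphase-promoting complex with ubiquitin, had 46, 67 and 142 reads and the highest ratio of the list at 3.21 (2.28 to 4.57). Ndc80, of the kinetochore, had 49, 88 and 143 reads and a ratio of 3.03 (2.18 to 4.28). The checkpoint gene Bub1b had 65, 170 and 162 reads and a ratio of 2.59 (1.93 to 3.51). Several of these genes lay near the minimum of the table, with 38 to 82 reads in the Control library for Ttk, Kif20a, Cdc20, Cenpa, Birc5 and Ect2. Some, Ube2c and Ndc80 among them, passed the minimum only through the Dicer cKO library, where they were high. The count of higher mitosis genes is therefore partly fixed by the minimum.

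Genes of DNA replication were less even. Of 33, 30 were measured and 8 were higher, with a median of 0.58 in Dicer cKO and 0.51 in ScxHt. Clspn, which couples the replication fork to the checkpoint kinase, had 66, 219 and 194 reads and a ratio of 3.05 (2.30 to 4.10). The helicase factor Cdc45 had 35, 90 and 99 reads and a ratio of 2.94 (1.98 to 4.45), and reached the minimum only through the Dicer cKO library. Tk1 and Gins2 stood at 2.64 and 2.56, but the helicase subunits Mcm2 to Mcm7 lay between 1.01 and 1.55, Pcna at 0.916 and Dut at 0.635. Replication-dependent histones, made in S phase, had 29 of 69 members measured, and 9 were higher with a median of 0.57, the linker histones Hist1h1a (29, 85 and 81 reads) and Hist1h1b (63, 164 and 162 reads) at 2.90 and 2.67. Reads of histone genes that resemble each other may have been assigned to either. Of 17 measured DNA repair genes, 5 were higher, among them the polymerase gene Polq at 2.23 and the glycosylase gene Neil3 at 2.59. Genes of p53 and cell cycle arrest had a median of 0.11.

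**Figure D3:**
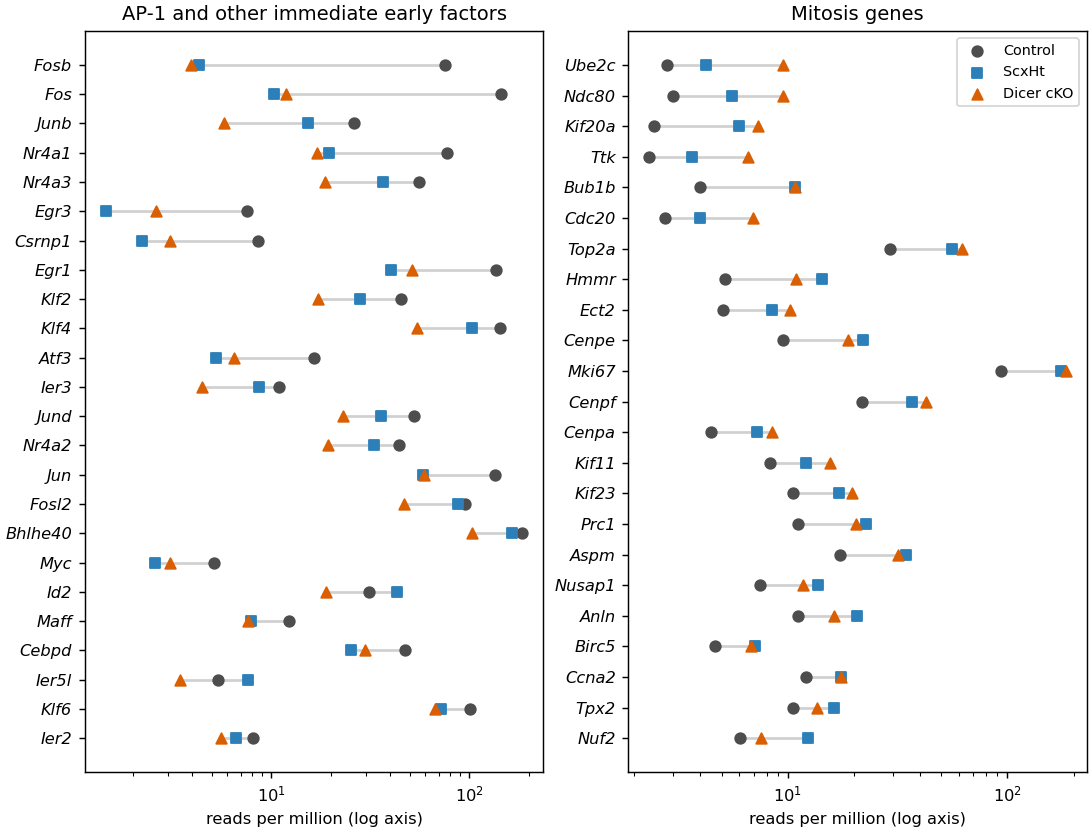
RPM (x axis, log scale) of measured AP-1 and other immediate early factors (left) and of mitosis genes (right) in the Control, ScxHt and Dicer cKO libraries, 1 point per library. The Control point lies far right of the other 2 for Fosb and Fos, and it is the leftmost point in every row of the right panel.

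Genes of mitosis commonly share a CHR element (TTTGAA) near the start and CCAAT boxes (CCAAT) upstream of it, and both were searched on either strand in the same windows. A CHR was found in 16 of the 20 mitosis genes with a window (80.0%), beside 13.9% of the analysed genes and 17.9% of all promoters. CCAAT was found in 15 of the 20 (75%), beside 42.5% and 37.4%. Printed are the 250 bases before the start of Ube2c (chr2:164769679-164769928, plus strand) and Cdc20 (chr4:118437344-118437593, minus strand), which encode an enzyme and the activator of the anaphase-promoting complex. Capitals mark CHR and CCAAT in either direction.
Ube2c: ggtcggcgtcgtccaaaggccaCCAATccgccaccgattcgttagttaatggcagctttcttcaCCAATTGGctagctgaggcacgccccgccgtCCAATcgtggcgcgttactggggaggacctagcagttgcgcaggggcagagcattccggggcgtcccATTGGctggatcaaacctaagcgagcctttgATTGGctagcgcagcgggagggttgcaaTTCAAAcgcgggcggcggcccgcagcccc
Cdc20: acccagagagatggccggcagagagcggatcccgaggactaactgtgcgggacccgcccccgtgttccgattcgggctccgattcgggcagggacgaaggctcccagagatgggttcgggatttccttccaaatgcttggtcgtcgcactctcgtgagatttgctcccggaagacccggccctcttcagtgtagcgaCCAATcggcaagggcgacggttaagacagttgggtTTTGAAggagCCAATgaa
The CHR lay 29 bases before the start of Ube2c and 18 before that of Cdc20, and CCAAT or its complement occurred 6 times in the first and at 53 and 8 bases before the start in the second.

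All 20 skeletal muscle fibre genes had more normalized reads in the Dicer cKO than in the Control library, with the interval above 1 for each and 13 called higher (median log2 ratio 0.89, ScxHt -0.31). The amount differed with the kind of fibre. Genes of fast glycolytic fibres led, with Myh4, the IIb myosin heavy chain, at 8125, 39836 and 49811 reads and a ratio of 6.37 (6.22 to 6.52), the calcium buffer Pvalb at 731, 2460 and 2703 reads and a ratio of 3.84 (3.54 to 4.17), and Actn3 at 1558, 2906 and 4617 reads and a ratio of 3.08 (2.91 to 3.26). Of the other adult heavy chains, Myh2 had 36924, 16146 and 69442 reads and a ratio of 1.95, and Myh1 had 42160, 21113 and 53596 reads and a ratio of 1.32 (1.30 to 1.34). Myh7, the slow heavy chain, had 40759, 14202 and 47563 reads and a ratio of 1.21 (1.20 to 1.23). Over the 12 measured slow fibre genes the median was 0.29, with 1 called higher, while in ScxHt it was -1.41. The 3 libraries differed both in the summed level of muscle genes and in the balance of fast and slow ones, with the IIb gene high and the slow genes low in ScxHt.

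Genes of embryonic and regenerating muscle were in the same range, with 7 of 11 measured members higher and a median of 0.88. Actc1, the cardiac actin of early muscle, had 286, 1272 and 1512 reads and a ratio of 5.49 (4.83 to 6.25), and Mybph, a thick filament protein, had 121, 323 and 440 reads and a ratio of 3.78. Myh3 and Myh8, the embryonic and perinatal heavy chains, stood at 1.84 and 1.95, and H19, the imprinted non-coding RNA of growing muscle, at 2.03 (11990, 6343 and 23386 reads). Satellite cell genes had few reads, with Pax7 at 14, 11 and 51 and Myod1 at 8, 11 and 32, and of the 3 measured members Megf10 was higher at 1.72. Of 24 measured genes of excitation-contraction coupling, 11 were higher and none lower, with a median of 0.73. Pvalb had the highest ratio of that list, Jph1 and Jph2 of the membrane junction stood at 1.88 and 1.73, and Atp2a2, the slow and cardiac calcium pump, was lowest at 0.986. The muscle ubiquitin ligase gene Trim63 had 290, 176 and 593 reads and a ratio of 2.12, Murc, of the caveolae, stood at 2.41 and Mss51 at 2.54.

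Of 25 genes of mitochondrial fatty acid oxidation, all measured, 7 were higher (3.87% of all genes) and none was lower, with a median of 0.39. The interval lay above 1 for 23 (21.6% of all genes). Pdk4, the kinase that closes pyruvate dehydrogenase, had 3028, 2834 and 8522 reads and a ratio of 2.92 (2.80 to 3.05), and the uncoupling protein gene Ucp3 had 171, 216 and 439 reads and a ratio of 2.67 (2.23 to 3.20). The muscle and the liver form of the carnitine transferase that admits fatty acids to mitochondria, Cpt1b and Cpt1a, stood at 1.72 and 1.64, with ScxHt ratios of 0.536 and 1.602. Of 16 regulators of oxidative metabolism, 4 were higher, Ppargc1a at 2.23 (540, 347 and 1160 reads), Ppara at 2.28, Sirt3 at 2.31 and Prkag3 at 2.75, while Ppard stood at 0.697. Of 22 measured genes of the tricarboxylic acid cycle, 1 was higher (Pcx, 1.76), with a median of 0.31. Of 21 of glycolysis, the muscle enzyme Pgam2 was higher at 1.86 and the neuronal enolase Eno2 lower at 0.583, with a median of 0.25, and of 18 of glycogen metabolism, 3 were higher and 1 lower, with a median of 0.37. Muscle markers were higher in the same library, at 113083 RPM beside 65011 in the Control, and their part in these medians was not tested.

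Several genes of fatty acid synthesis were higher, and none of cholesterol synthesis was. The 22 genes that turn citrate and acetate into fatty acids and triglycerides were all measured, and 7 were higher and none lower, with a median of 0.58 (ScxHt 0.13). Me1, which supplies NADPH, had 1351, 1882 and 3056 reads and a ratio of 2.35 (2.20 to 2.51). Acly, which splits citrate into acetyl-CoA, had 1541, 1851 and 2950 reads and a ratio of 1.99 (1.87 to 2.12), Acss2, which activates acetate, 2.12, and Fasn, the fatty acid synthase, 10502, 12808 and 18931 reads and a ratio of 1.87 (1.83 to 1.92). The desaturases differed, with Scd1 at 1.39 (68739, 88133 and 91717 reads), Scd2 at 0.894 and Fads2, of polyunsaturated fatty acids, at 0.631. Their regulators Srebf1 and Mlxipl stood at 0.836 and 1.27. Among 21 measured genes of the cholesterol pathway, none was higher and 3 were lower, among them Hsd17b7 (0.448) and Stard4 (0.582), with a median of -0.10.

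Markers of fat itself differed little. Of 15 adipocyte genes, 14 were measured, with a median of 0.17, and Adrb3, the adrenergic receptor of fat cells, was higher at 1.84 (61, 73 and 108 reads). Adipoq had 1766, 2446 and 2114 reads and a ratio of 1.24, Plin1 stood at 0.993 and Fabp4 at 0.962. Lep, the hormone that fat cells release according to their stores, had 747, 782 and 306 reads and a ratio of 0.425 (0.371 to 0.487), the only lower gene of the list. Together the 15 genes held 1812, 2191 and 2061 RPM. Rbp4, a retinol carrier of fat and liver, had 140, 199 and 398 reads and a ratio of 2.95 (2.43 to 3.61), and Orm1, an acute phase protein, had 24, 88 and 84 and a ratio of 3.63.

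Of 11 erythroid genes, 7 were measured and 6 were higher, with a median of 1.06 (ScxHt -0.02). Hba-a1 had 1316, 1339 and 3331 reads and a ratio of 2.63 (2.46 to 2.80), and Alas2, the first enzyme of haem synthesis in red cells, had 188, 243 and 411 reads and a ratio of 2.27 (1.91 to 2.71). The alpha globin genes Hba-a1 and Hba-a2 are near-identical copies, as are Hbb-bs and Hbb-bt, so their reads cannot be split with certainty. The enzyme gene Bpgm stood at 0.994, and Slc4a1 and Epb42, of the red cell membrane, had at most 11 reads in any library. Hmox1, which breaks haem down, had 95, 300 and 232 reads, a ratio of 2.54 beside 3.02 for ScxHt.

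Of 16 macrophage markers, 14 were measured, none was higher and 3 were lower in the Dicer cKO library, with a median of -0.43 beside 0.76 for ScxHt. Ctss, a lysosomal protease, had 372, 649 and 201 reads and a ratio of 0.561 (0.470 to 0.668), and C1qb, of complement, had 128, 235 and 52 and a ratio of 0.422 (0.300 to 0.587). Its partners C1qa and C1qc stood at 0.814 and 0.977. Genes of antigen presentation by MHC class II had 7 of 11 members measured and 4 lower, with a median of -0.81 and a ScxHt median of 0.63. H2-Ab1, a class II chain, had 355, 574 and 187 reads and a ratio of 0.547 (0.456 to 0.655), and Ciita, the master regulator of these genes, had 87, 112 and 36 reads and a ratio of 0.430 (0.283 to 0.641). Together the macrophage markers held 325, 595 and 251 RPM. Lymphocytes were scarce, with Cd3d and Cd3g listed at 0 reads in every library and at most 21 reads of Cd4. Of 19 measured cytokine and chemokine genes, 7 were lower, among them the alarmin Il33 at 0.566, the fractalkine gene Cx3cl1 at 0.475 and the scavenger receptors Ackr2, Ackr3 and Ackr4 at 0.537, 0.524 and 0.486, and 2 were higher, among them Il1rl2 at 1.69. Of 20 measured complement genes, 5 were lower, with the protective surface proteins Cd55 and Cd59a at 0.509 and 0.502 and Clu at 0.516. Interferon-responsive genes had a median of -0.17, with 1 of 20 lower.

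None of the 14 blood endothelial markers passed a limit, and their median was 0.02 (ScxHt -0.50), from Aplnr at 1.64 to Tie1 at 0.743. The 6 lymphatic markers had a median of -0.28. Among 13 measured genes of smooth muscle and pericytes the median was 0.39 and the interval lay above 1 for 7. Lmod1 was higher at 2.28 (41, 51 and 90 reads) and Tagln at 1.67 (449, 425 and 723 reads). Pericyte genes lay on both sides of 1, with Rgs5 at 0.967 and Notch3 at 0.767. In Control and Dicer cKO, Abcc9 had 18.25 and 25.65 RPKM, Kcnj8 1.93 and 2.44, and Cspg4 16.82 and 13.69.

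The largest losses in normalized reads were of matrix genes. Col1a1, a chain of type I collagen, had 1261322, 925996 and 658168 reads and a ratio of 0.542, and its partner Col1a2 had 708695, 658387 and 391822 reads and a ratio of 0.574 (0.572 to 0.576). Col1a2 stood at 0.601 with total counts. After these, the largest losses were those of Fmod, Dcn, Fn1, Thbs4, Cilp2, Igfbp5, Ctgf and Chad, with ratios from 0.401 to 0.60. Fn1, the fibronectin gene, had 52621, 77906 and 25605 reads and a ratio of 0.505 (0.498 to 0.513), and Igfbp5, which binds insulin-like growth factors in the matrix, had 18802, 19915 and 7465 and a ratio of 0.412 (0.401 to 0.424). The largest gains were those of Myh4, Myh2, Xirp2, Tpm1, Atp2a1, H19, Myl1, Fasn, Tnnt3 and Ckm, of which H19 is a non-coding RNA, Fasn an enzyme of fat synthesis and the rest are muscle genes. Over all 15 tendon fibroblast markers, 8 were lower and none higher, the interval lay below 1 for all 15 (28.5% of all genes), and the median was -0.80 beside 0.30 for ScxHt. Muscle markers were higher in the same library, and the part of a different share of muscle in the tendon values was not tested.

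Of 28 genes for hydroxylation, cleavage and crosslinking of collagen, 27 were measured, with a median of -0.51. Of these, 7 were lower (4.19% of all genes), none was higher and 20 lay between the limits. The interval lay below 1 for 26 (28.5% of all genes). Lox, whose product makes the crosslinks, had 19679, 21890 and 10378 reads and a ratio of 0.548 (0.535 to 0.561), and Plod2, which hydroxylates lysines of the telopeptides, had 7183, 8710 and 3077 reads and a ratio of 0.445 (0.426 to 0.464). Adamts2 and Pcolce2, which cleave the procollagen ends and assist in it, stood at 0.525 and 0.436, and P3h2, a prolyl hydroxylase gene, at 0.505. The chaperone Serpinh1 (0.859) and the prolyl hydroxylase subunits P4hb and P4ha1 (0.909 and 0.903) differed less. Only Adamts14, at 1.40, had its interval above 1. Genes of glycosaminoglycan synthesis had a median of -0.41 over 24 measured, 6 lower and 1 higher. Xylt1, which starts the chains, had 1434, 1491 and 708 reads and a ratio of 0.513 (0.468 to 0.561), and Chst14, needed for dermatan sulphate, had 118, 118 and 48 and a ratio of 0.422 (0.295 to 0.596). Hs3st3a1, a sulphotransferase gene of heparan sulphate, ran the other way with 35, 89 and 99 reads and a ratio of 2.94.

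Among the small leucine-rich proteoglycans, which bind collagen, Prelp (chromosome 1, bases 133910304 to 133921414) had 9313, 8716 and 1486 reads and a ratio of 0.166 (0.157 to 0.175), the lowest of 13 measured, while its relatives Bgn, Ogn and Lum stood at 0.875, 0.795 and 0.660. Of 28 measured matricellular genes, 10 were lower and 1 higher (median -0.52), with Spp1 lowest at 0.289 and Smoc2 at 2.14 (235, 289 and 484 reads), and Postn, induced in growing and healing matrix, at 1.31. Elastic fibre genes had a median of -0.34, and Fbn2, the fibrillin of young tissue, was higher at 1.69 (962, 1542 and 1562 reads) where Fbn1 stood at 0.613. Basement membrane genes had a median of 0.16. Frem1, which anchors basement membranes, had 115, 126 and 357 reads and a ratio of 3.22 (2.61 to 4.01), its partner Frem2 stood at 2.05 and the epithelial laminin chains Lama3 and Lamb3 at 0.537 and 0.542. Col26a1 (14, 37 and 92 reads, ratio 6.82) and Col22a1, of tissue junctions (999, 1071 and 2023 reads, ratio 2.10), were the only collagen chains of the lists called higher. Htra4, a serine protease gene (chromosome 8, bases 25024929 to 25038962), had 385, 506 and 34 reads and a ratio of 0.0917 (0.0626 to 0.130), the lowest after Fosb and Fos, while Htra1 and Htra3 stood at 0.815 and 0.632. Protease inhibitors had a median of -0.52, with 5 of 15 lower, among them Timp2 at 0.514 (11755, 12815 and 5815 reads).

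Cartilage and bone genes lay below the table as well. Of 16 fibrocartilage markers, 14 were measured and 7 were lower (median -0.61), and Sox9, the cartilage lineage factor, had 527, 400 and 130 reads and a ratio of 0.256 (0.210 to 0.311), where its partners Sox5 and Sox6 stood at 0.734 and 1.09 and Col2a1 at 0.850. Of 12 bone genes, 5 were measured and 3 were lower, and Bglap and Bglap2, of osteoblasts, were listed at 0 reads in every library. Of the tendon sheath and paratenon list, 3 of 10 measured genes were lower and Col22a1 was higher, with Prg4, the lubricin of gliding surfaces, at 14611, 25054 and 6761 reads and a ratio of 0.481.

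In signalling pathways, ligands, receptors and secreted antagonists were all among the genes with low ratios. Among 35 measured genes of TGF-beta and BMP signalling, 8 were lower (4.19% of all genes) and none was higher (3.87% of all genes), with a median of -0.38. The BMP antagonist Nbl1 had 1664, 1342 and 463 reads and a ratio of 0.289 (0.260 to 0.321), while Grem1 stood at 0.984. The ligand Gdf5, of joints and tendons, had 152, 317 and 62 reads and a ratio of 0.424. The ligand genes Inhba and Bmp2 had 9.184 and 2.338 RPKM in Control and 5.389 and 1.41 in Dicer cKO. Ligands and receptors of TGF-beta were closer to the table, Tgfb1 to Tgfb3 from 0.714 to 0.874 and Tgfbr1 and Tgfbr2 at 0.781 and 0.798, with the coreceptor Tgfbr3 lower at 0.517. In the Wnt pathway, 7 of 30 measured genes were lower and 4 higher, beside the same shares of all genes. The antagonists Sfrp2, Frzb, Sfrp4 and Dkk2 stood between 0.468 and 0.588 and Sfrp5 at 7.87, the receptor Fzd3 had 57, 85 and 156 reads and a ratio of 2.84, and the target gene Axin2 stood at 1.06. The antagonist genes Wif1 and Dkk3 had 42.59 and 84.06 RPKM in Control and 39.58 and 66.04 in Dicer cKO. The ligand gene Wnt5b had 3.688 and 1.814 RPKM in these libraries. In Hedgehog signalling the coreceptors Gas1, Cdon and Boc were lower together at 0.434, 0.492 and 0.589, and the target genes Gli1 and Ptch1 stood at 1.58 and 0.911. The Notch target Hey2 had 29, 53 and 90 reads and a ratio of 3.22.

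Growth factor genes of the FGF, PDGF and EGF families had a median of -0.11, with the PDGF ligands Pdgfa and Pdgfc at 0.551 and 0.425 and Fgf6, made by muscle, at 1.86. In the IGF axis, Igfbp2 had 49, 153 and 128 reads and a ratio of 2.71 and Igf1 had 7984, 13344 and 5579 and a ratio of 0.726. Retinoid genes included Crabp2, which carries retinoic acid to the nucleus, with 89, 58 and 20 reads and a ratio of 0.233 (0.136 to 0.382), and Dhrs9, which makes retinal, at 0.456. Of transcription factors that pattern limb and tendon, Twist2 had 111, 69 and 30 reads and a ratio of 0.281, Scx 1055, 686 and 371 reads and 0.365, and Hand2 0.493, while Eya1 had 93, 104 and 220 and a ratio of 2.46. Mechanosensitive channels were represented by Piezo1 at 0.620 and Piezo2 at 0.591. Ion channel genes as a list had a median of -0.60 over 19 measured, with 7 lower and 5 higher, and a median of 0.12 when a mean count of 200 was required. Metallothioneins Mt1 and Mt2 stood at 0.392 and 0.394 and the extracellular superoxide dismutase gene Sod3 at 0.478. Clock genes stayed near the middle, with 1 of 18 lower and a median of -0.13.

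**Figure D4:**
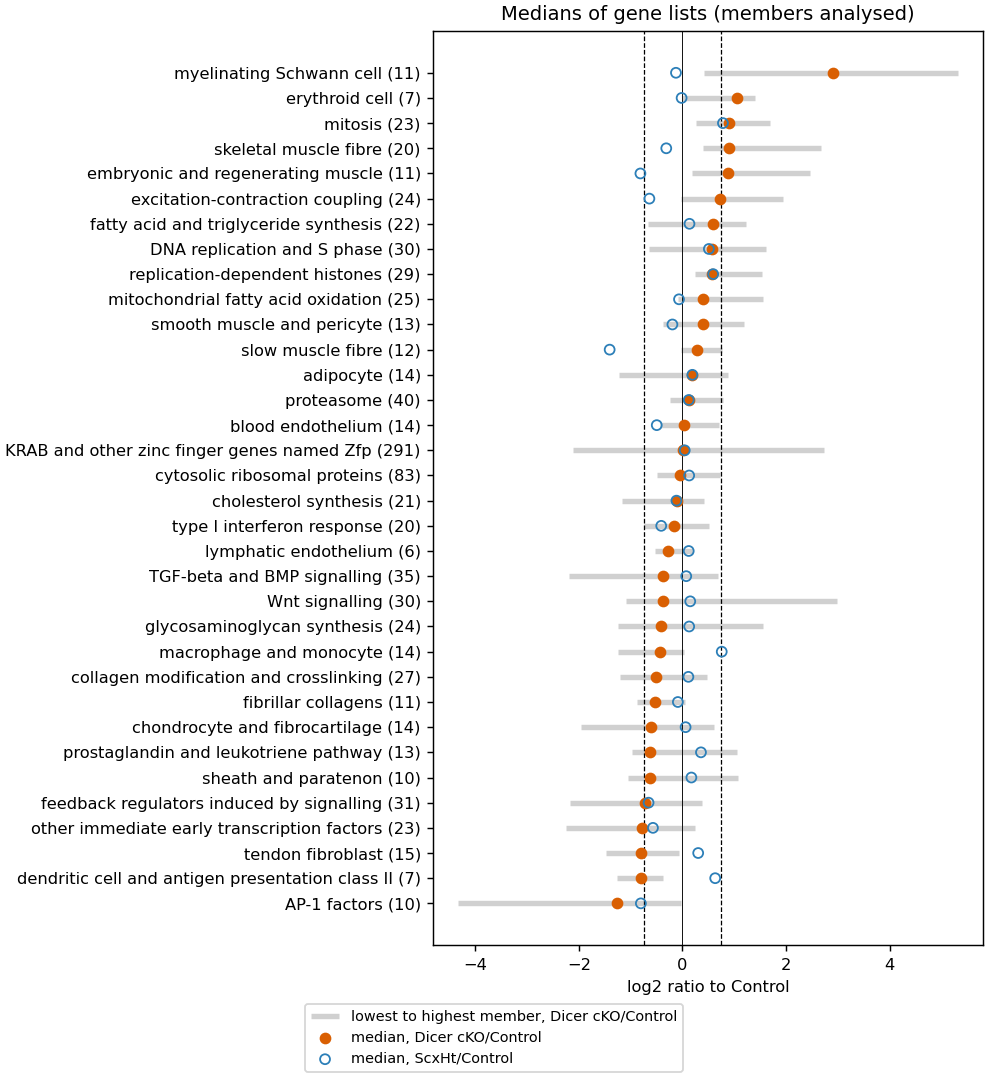
Median log2 ratio to Control of the measured members of selected lists (y axis, number measured in parentheses) in the Dicer cKO (filled) and ScxHt (open) library, which share the Control library; grey bars run from the lowest to the highest member in Dicer cKO and dashed lines mark the limits. Myelinating Schwann cell genes have the highest median in Dicer cKO (2.90) and AP-1 factors the lowest (-1.25), and the bars show that the members of a list spread widely around its median.

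Other genes with ratios among the 20 highest or lowest of the named genes belonged to none of these processes. Adcy1, a calmodulin-stimulated adenylyl cyclase, had 22, 74 and 148 reads and a ratio of 6.99 (4.45 to 11.5), beside a ScxHt ratio of 3.22. Zfp69, a KRAB zinc finger gene, had 17, 32 and 108 reads and a ratio of 6.60 (3.93 to 11.7), and Frmd3 had 22, 47 and 86 and a ratio of 4.06. Low in Dicer cKO and not in ScxHt were Igsf8, an immunoglobulin superfamily gene, with 119, 130 and 15 reads and a ratio of 0.131 (0.0710 to 0.225), Coch, a secreted protein of the inner ear and eye, with 111, 161 and 19 reads and a ratio of 0.178 (0.103 to 0.291), and Slurp1 with 118, 109 and 28 reads and a ratio of 0.246. Duox1 (97, 68 and 22 reads), Arl10 (93, 80 and 20) and Fbxl16 (90, 41 and 23) had ratios of 0.236, 0.223 and 0.265. Just past the upper limit lay Ppp1r3a, Tubb4b-ps2 and Tarsl2 at 1.67 each, and just under it Sox2ot, Rhbdl3 and CAAA01201205.3, all with the limit inside their intervals. Just below the lower limit lay Fam132a and RP24-74O18.2 and just over it AC074336.1, RP24-344N22.3 and Atg4c, all at 0.60 when rounded.

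Families of genes that share a name were mostly close to the middle of the table. The counts below stand beside 3.87% higher and 4.19% lower over all genes. None of the 83 measured cytosolic ribosomal protein genes passed a limit, and their ratios ran from 0.715 to 1.66 around a median log2 ratio of -0.05. Mitochondrial ribosomal proteins had a median of 0.27, with 4 of 72 higher, and subunits of complex I, of complexes III and IV and of ATP synthase had medians of 0.24, 0.35 and 0.27 with 2 of 44, 2 of 24 and 0 of 17 higher. The 13 mitochondrially encoded messenger RNAs had a median of 0.27 in Dicer cKO and -0.79 in ScxHt. Of 40 proteasome genes, 1 was higher. Among 27 kinesins, 8 were higher, 6 of them of dividing cells (Kif11, Kif14, Kif15, Kif20a, Kif20b and Kif23). Among 291 Zfp genes the median was 0.02 with 15 higher and 3 lower, the lowest being Zfp36, an RNA-binding protein and not a KRAB factor. Of 34 protocadherins of the clusters, 4 were lower, with Pcdhb15 at 85, 62 and 25 reads and a ratio of 0.305, and of 14 Hox genes, 2 were lower, Hoxd9 at 0.412 and Hoxa11 at 0.586. Of 178 solute carriers, 11 were lower and 7 higher. Reads of near-identical members of a family, of antisense genes and of overlapping genes may have been assigned to either partner.

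**Figure D5:**
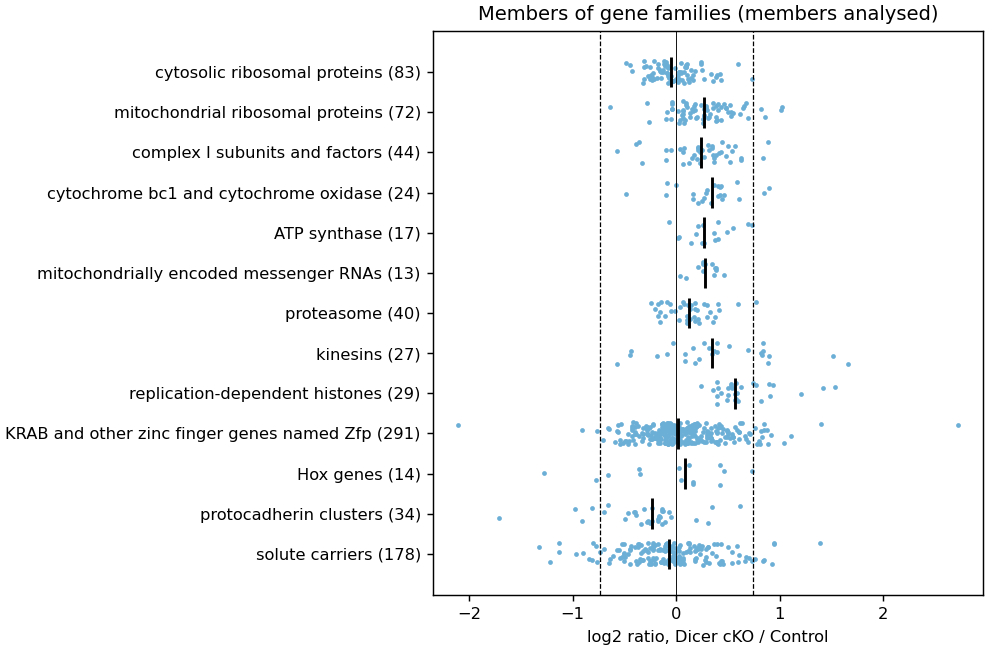
Log2 ratio of Dicer cKO to Control (x axis) of each measured member (points) and the median (black bar) of gene families defined by name, with the number measured in parentheses and the limits dashed. Cytosolic ribosomal protein genes lie between the limits, kinesins and histones reach past the upper limit, and single Zfp genes lie far out on either side.

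Genes past a limit were spread over the genome. Of the 13366 genes, 11463 had a single position in the annotation (GENCODE vM21), and the share of higher genes ran from 2.44% on chromosome 15 to 5.88% on chromosome 19 and that of lower genes from 2.18% on chromosome 14 to 5.86% on chromosome 1, leaving aside the mitochondrial and Y chromosomes. Among neighbours in the table of measured genes, 35 pairs were both higher and 23 pairs both lower, and runs of 3 or more numbered 4. The longest was a run of 5 higher genes on chromosome 19 from 34668403 to 36120099, Slc16a12, Pank1, Kif20b, Rpp30 and Ankrd1. Nfatc2ip, Rabep2 and Atp2a1 were neighbours and higher on chromosome 7, Prelp, Fmod and Btg2 neighbours and lower on chromosome 1 from 133910304 to 134079120, and Casr, Cd86 and Slc15a2 neighbours and lower on chromosome 16. Some pairs were members of 1 cluster, such as the myosins Myh4 and Myh8 and the globins Hba-a1 and Hba-a2. Short genes passed a limit more often, with 5.67% higher and 5.23% lower in the fifth of genes with the shortest exons (up to 2698 bases) and 3.01% and 2.18% in the fifth with the longest.

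Genes with sites for abundant or tendon-related miRNAs had medians near that of all genes. Of 18 miRNAs looked up, 14 had a mature sequence in the RefSeq table. For each, genes were taken whose longest 3' UTR held an 8mer site, the complement of bases 2 to 8 followed by A. Printed are 5 of them, the let-7 and miR-29 members that are common in connective tissue, miR-135a-5p, and those whose genes had the lowest and the highest median, with the seed in capitals. No 2 of the 5 share a seed.
let-7a-5p: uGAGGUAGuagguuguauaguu
miR-29a-3p: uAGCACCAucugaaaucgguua
miR-135a-5p: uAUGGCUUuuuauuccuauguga
miR-10b-5p: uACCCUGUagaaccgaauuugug
miR-99a-5p: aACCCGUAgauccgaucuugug
The 11149 genes with a 3' UTR had a median log2 ratio of -0.04, with 3.80% higher and 3.74% lower. The 500 genes with a let-7a-5p site had a median of -0.06, with 2.8% higher and 3.4% lower. For miR-29a-3p it was -0.04 over 420 genes, with 5% higher, and for miR-135a-5p -0.06 over 438 genes, with 1.6% higher and 3.88% lower. The extremes were -0.11 for miR-10b-5p, with 272 genes, and 0.01 for miR-99a-5p, with 39. Genes with sites had longer 3' UTRs than the rest, with medians from 2326 to 3342 bases beside 1507, and no adjustment for that was made. Among the 17 measured let-7 targets that are conserved, none was higher, 1 was lower and the median was -0.18, and of 15 genes for miRNA processing and silencing none passed a limit.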

How the data were processed

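Per the submitters' processing notes, reads were processed with TopHat and Bowtie2 on the mouse genome GRCm38 (mm10) and assigned to genes with HTSeq, and DESeq2 is named as well. The authors deposited raw read counts per gene for the 3 libraries, together with RPKM values, which scale reads by gene length and library size. The tools' versions, the annotation release and the strand setting are not given in the sources used here, so antisense and overlapping genes are uncertain, as are near-identical copies.

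Identical lines were kept once, and of lines that share a name the one with most reads, which left 53618 genes of 54189 lines. Lines whose name a spreadsheet had turned into a date stand for several genes and were kept apart. Counts of Control and Dicer cKO were divided by median-of-ratios size factors (1.02 and 0.981, DESeq2 1.42.0 in R 4.3.3), and genes with a mean normalized count above 50 were kept. Ratios had exact 95% intervals from the 2 counts (Python 3.11.15, scipy 1.17.1), and the deposited RPKM served only to give a level per gene length. The counts, ratios and intervals were run on simulated Poisson counts. These hold counting error alone, so the run checked the calculation and not the spread between mice. With 1 library per genotype no test was run, and the total of each library sets the precision of its counting intervals. Named were Dicer1, the 20 highest and 20 lowest ratios among named genes, the 10 largest gains and losses in normalized count, the 3 genes on each side of each limit, and members of marker lists (21), gene lists (53) and families defined by name (23). Genes and lists were chosen with earlier results of these data known, so no list is independent evidence of its direction. Genes named as runs of neighbours come from the search by position and not from that rule. Within lists, members were picked for naming after their values were seen. Some genes that the rule names are not reported here. Alternatives changed the scaling, the minimum count, the limits, a pseudocount and the rows used. Positions, exon lengths and 3' UTRs came from GENCODE vM21 (11471 genes matched, 85.8%), promoters and miRNA sequences from RefSeq (GRCm38.p6).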

Additional observations from a re-analysis of the deposited data

How the results depend on the processing

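No paired analysis was possible because each genotype had 1 library, and leaving out a replicate was not possible for the same reason. The counts of higher and lower genes followed the minimum mean count, with 1551 higher and 1422 lower genes at a minimum of 10, 159 and 237 at 200, and 5335 and 5445 with no minimum. They were 214 and 214 with ratios above 2 and below 0.5, and 164 and 182 when the whole counting interval had to be past the limit. They stayed within 1.5 times of 517 and 560 under TMM scaling (559 and 511, edgeR 4.0.16), size factors of all 3 libraries (558 and 537), total counts (665 and 437), total counts without features above 1% (567 and 502), a pseudocount of 1 (500 and 548) and without clones, pseudogenes and small RNAs (431 and 422). The last of these also left out the rows named by dates. Every line of the table, an alternative added after seeing the data, gave 523 and 564. With total counts 60.3% of the genes past a limit were higher, in place of 48.0%. Each scaling moved all log2 ratios together, by 0.023 for TMM, 0.065 for total counts, 0.015 for 3 libraries and 0.027 without features above 1%. Of 97 list medians, 15 changed sign under an alternative, the largest being that of ion channels (-0.60, and 0.12 at a minimum of 200), and 8 crossed a limit. Of 72 named genes, 8 changed side of a limit by scaling. Ctgf, Fam132a and RP24-74O18.2 were among those that left the lower side, Sox2ot, Rhbdl3 and CAAA01201205.3 passed the upper limit, and Col1a2 stood at 0.601 with total counts. Among the 72 named genes, no ratio past a limit moved to the other side of 1 under another scaling. Depth limits the genes near the minimum, as the interval of Cdc20 shows (1.68 to 3.49), and nothing in these libraries measures the spread between mice.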

Other observations

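Receptors and second messengers outside the pathways above were divided. Of 21 receptors for neuropeptides and other ligands coupled to G proteins, 6 were higher and 4 lower in the Dicer cKO library, with a median log2 ratio of 0.01. Adcyap1r1, the receptor of the neuropeptide PACAP, had 110, 137 and 262 reads in Control, ScxHt and Dicer cKO and a ratio of 2.47 (1.97 to 3.12), and the purine receptor gene P2ry1 had 37, 37 and 89 reads and a ratio of 2.50 (1.69 to 3.77). Npy1r, a receptor of neuropeptide Y, had 205, 111 and 74 reads and a ratio of 0.375 (0.283 to 0.491), and Casr, the calcium-sensing receptor gene, had 122, 225 and 63 reads and a ratio of 0.536. Among 13 genes of prostaglandin and leukotriene synthesis, the lipoxygenase gene Alox12 was lower at 0.512 (781, 1044 and 385 reads), as was Alox5ap at 0.548, and the receptor gene Ptger3 was higher at 2.06. Potassium and sodium channel genes lay on both sides, with Kcnc4 at 2.66, Scn4b at 1.68 and Kcnab2 at 0.469.

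Medians of the stress response lists lay between the limits. Hypoxia genes had a median of -0.21 with 3 of 18 lower, among them Stc1, a secreted glycoprotein, with 81, 43 and 25 reads and a ratio of 0.321 (0.196 to 0.507), and Ak4 at 0.494. Heat shock proteins had a median of 0.17 with 1 of 19 higher (Hspb2, 1.79), and the unfolded protein response a median of -0.12, with the serine synthesis gene Psat1 at 2.21 and the glutathione-degrading gene Chac1 at 1.87. Creb3l1, a membrane-bound factor of collagen-secreting cells, had 1980, 1785 and 897 reads and a ratio of 0.471 (0.434 to 0.509). Of 19 glucocorticoid-responsive genes, 2 were higher and 5 lower (3.87% and 4.19% of all genes), with a median of -0.49. The interval lay below 1 for 13 of the 19 and for 11 of the 18 hypoxia genes (28.5% of all genes). The glucocorticoid-responsive genes past a limit include Pdk4, Trim63, Dusp1 and Ddit4, which other lists hold as well. Imprinted genes had a median of -0.03, and with H19 the zinc finger gene Zim1 was higher at 1.93 while Nnat and Dcn were lower at 0.502 and 0.542. Of the rows named as miRNA hairpins, 30 passed the minimum, and 3 were higher and 2 lower. Total RNA-seq reads there come from longer transcripts that span a hairpin as well, so these rows do not measure mature miRNAs.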
